A study of Mus musculus with 24 samples.

Results

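The replication-dependent histone genes were represented by 44 of 41174 gene probes on the array. They were chosen by name alone, as every gene probe whose name in the scanner files begins with Hist1h, Hist2h, Hist3h or Hist4h, the 4 groups of canonical histone genes. The 44 probes stood for 34 gene names of 27962 on the array. By type they were 8 probes of the linker histone H1, 15 of H2A, 10 of H2B, 3 of H3 and 8 of H4. By cluster there were 30 Hist1, 7 Hist2, 5 Hist3 and 2 Hist4 probes. A single probe measured each of 26 genes, 6 genes had 2 probes, and Hist1h1d and Hist3h2a had 3.

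The study asked what p27, a brake on cyclin-dependent kinases encoded by Cdkn1b, and stathmin, a microtubule-destabilising protein encoded by Stmn1, do for cell proliferation in the mouse. Thymuses of C57BL/6 mice at 15 weeks of age were profiled in 6 wild-type mice, 6 lacking p27 (p27 knockout), 6 lacking stathmin (stathmin knockout) and 6 lacking both (double knockout). The labels describe each genotype as 3 females and 3 males without saying which mouse was which, and the sources used here do not describe how the alleles were made. Every array carried thymus RNA of 1 mouse in the Cy5 channel and one common reference in the Cy3 channel, a pool of RNA from fibroblasts of all the genotypes. Values below are log2 ratios of Cy5 over Cy3, so that 1 unit is a doubling against the pool. A ratio says how a gene stood against the pool and not how abundant its RNA was. The dyes ran the same way on all 24 arrays, so the zero of the ratio carries any dye bias and rests on the centring of each array. With 1 array per mouse, the p-values measure the spread between arrays. That spread mixes differences between mice with those of slide, scan day and labelling.

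Canonical histone proteins package newly copied DNA, and their genes are switched on together in S phase, through the cyclin E and CDK2 substrate NPAT. Their short, intronless transcripts end in a stem-loop that SLBP binds, and mostly carry no poly(A) tail, whereas labelling kits of the kind used here start from poly(A). In the thymus, most division takes place among cortical thymocytes before and during the double-positive transition, which makes histone transcripts a common readout of cycling thymocytes. Probes of near-identical family members may capture each other's transcripts, and which gene a bright histone probe reports is therefore uncertain.

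The labels were checked on the deleted genes first. A Stmn1 probe averaged 3.10 in wild type and 2.45 in p27 knockout, but -2.95 and -3.19 in stathmin and double knockout, and a Cdkn1b probe averaged 1.80, 0.30, 1.64 and -0.50 in the same 4 genotypes, with 1 array left out in each of wild type and double knockout as outlier spots. That Cdkn1b probe did not pass in p27 knockout against wild type (limma adjusted p = 0.0790). Other probes separated the genotypes less. In the same order, the other Stmn1 probe averaged 3.54, 2.81, 2.01 and 1.88. The other Cdkn1b probes averaged 0.28, -0.78, 0.49 and -0.65, and -0.50, -0.99, -0.54 and -0.61. The median of double-positive thymocyte markers lay between 4.43 and 6.66 on 23 arrays and at 0.34 on p27 knockout replicate 6. That array was also the dimmest, with a 99th percentile of Cy5 intensity of 19.4 kilo-units, followed by p27 knockout replicate 5 at 50.7 kilo-units. The other 4 p27 knockout arrays reached 75.3 to 171 kilo-units, and wild type reached 56.3 to 286, stathmin knockout 131 to 340 and double knockout 200 to 320 kilo-units. On replicates 5 and 6, fibroblast markers stood at -1.02 and -0.56, against -3.44 to -1.63 on the other 22 arrays. Results that rest on these arrays are given with and without both. Each of the 6 slides held 1 array of every genotype at a fixed position, so genotype and position cannot be told apart.

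Of the 44 histone probes, 42 were measured above background on at least 6 arrays and entered the tests. The other 2 were another Hist1h1d probe, above background on 1 array, and a second Hist4h4 probe, above background on 2. Among the 42, the mean ratio was above 0 in all 4 genotypes for 26 probes and below 0 in all 4 for 6. Over all probes tested, 53.1% were above 0 in wild type, 54.5% in p27 knockout, 53.3% in stathmin knockout and 51.9% in double knockout. These shares count each genotype alone, unlike the counts over all 4. Ratios of bulk tissue cannot tell more cycling cells from more histone RNA per cell. The median of the 42 probes on an array averaged 0.95 ± 0.63 (SD, n = 6) in wild type, 0.91 ± 0.83 in p27 knockout, 1.10 ± 0.49 in stathmin knockout and 1.23 ± 0.51 in double knockout. The genotypes overlapped. Replicates 5 and 6 held 0.77 and -0.70, and the other p27 knockout arrays averaged 1.35 ± 0.11 (SD, n = 4). The slide mean of the same value ran from 0.60 on slide 2 to 1.63 on slide 5. Slides 5 and 6, scanned on day 3, held 1.63 and 1.43, and the slides of days 1 and 2 held 0.60 to 1.03.

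**Figure D1:**
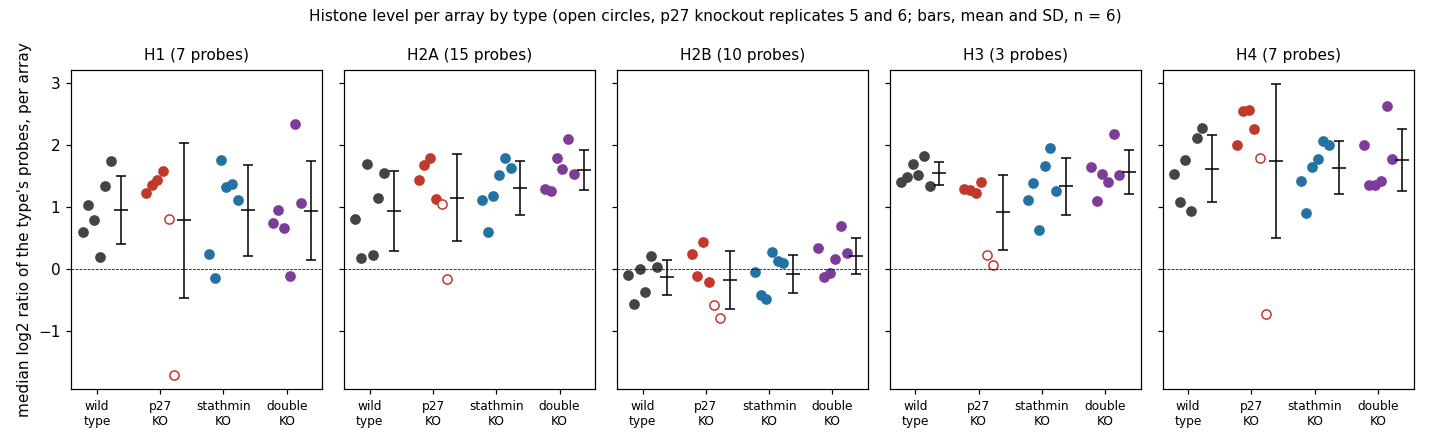
Median log2 Cy5 over Cy3 ratio of the probes of each histone type on every array, by genotype (points are arrays, 6 per genotype). The lowest p27 knockout value is replicate 6 in all 5 types, and the double knockout arrays of H2A lie between 1.26 and 2.10.

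The types differed in where they stood against the fibroblast pool. All 7 H4 probes and all 3 H3 probes tested had mean ratios above 0 in every genotype, as did 9 of 15 H2A probes. Among 10 H2B probes only 3 did, and 3 were below 0 throughout. H4, which pairs with H3 in the nucleosome core, had a per-array median of 1.62 ± 0.54 (SD, n = 6) in wild type, 1.74 ± 1.24 in p27 knockout, 1.63 ± 0.43 in stathmin knockout and 1.75 ± 0.50 in double knockout. H2B, by contrast, stood at -0.13 ± 0.29 in wild type and 0.21 ± 0.29 in double knockout.

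**Figure D2:**
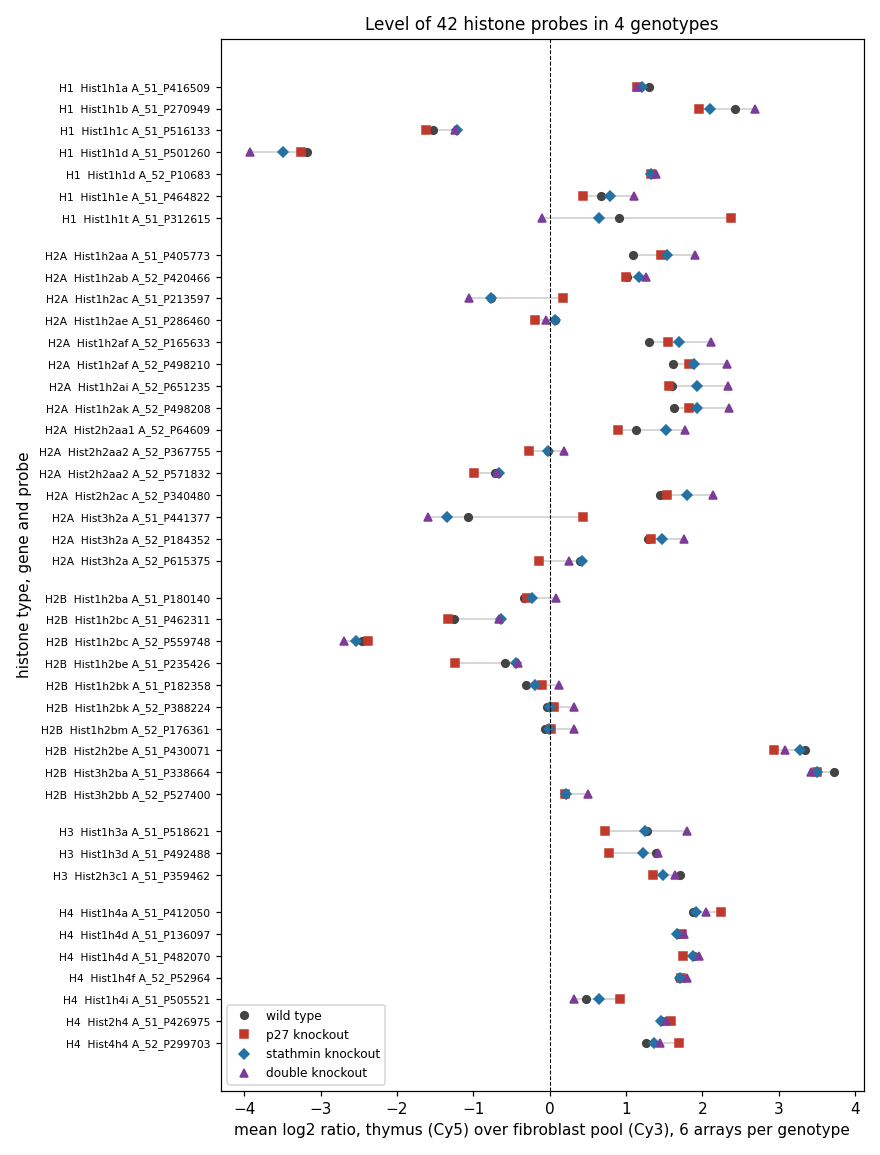
Mean log2 Cy5 over Cy3 ratio of each of the 42 histone probes tested, by genotype, grouped by histone type. Hist3h2ba and Hist2h2be stand highest, near 3 to 4, and a probe of Hist1h1d stands lowest, between -3.92 and -3.19.

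Linker histones, which bind DNA between nucleosomes, lay both above and below the pool. Hist1h1b, encoding H1.5, was among the higher ones, with wild-type arrays from 1.10 to 3.19 (median 2.68), p27 knockout from -1.17 to 3.40 (median 2.77), stathmin knockout from 1.00 to 2.97 (median 2.29) and double knockout from 1.98 to 4.03 (median 2.54). All genotypes overlapped. Hist1h1c, encoding H1.2, lay below the pool on every array: its means were -1.53 ± 0.30 (SD, n = 6) in wild type, -1.62 ± 0.27 in p27 knockout, -1.21 ± 0.25 in stathmin knockout and -1.24 ± 0.52 in double knockout. Hist1h1a averaged 1.14 to 1.30 over the genotypes and Hist1h1e 0.43 to 1.10. Both Hist1h1d probes tested name the same RefSeq transcript yet stood apart. One averaged 1.33 to 1.39 and the other -3.92 to -3.19, with a correlation of 0.05 over 24 arrays.

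The testis-type linker histone Hist1h1t had the highest SD of the 42 probes in wild type (1.03) and stathmin knockout (1.35), but the lowest of the 7 H1 probes in double knockout (0.205). Its wild-type arrays ran from -0.20 to 2.49 with a median of 0.54, and p27 knockout from -0.13 to 5.73 with a median of 1.90. Stathmin knockout ran from -0.40 to 2.68 with a median of -0.10, and double knockout from -0.28 to 0.25 with a median of -0.15. The double knockout arrays were thus close together near 0, while 5 of 6 p27 knockout arrays, at 1.36 to 5.73, lay above all of them.

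Of the 9 core histone H2A probes above the pool in every genotype, 6 had the highest mean Cy5 intensity of the type. These 6 bright probes, grouped after their values were seen, were Hist1h2aa, both Hist1h2af probes, Hist1h2ai, Hist1h2ak and Hist2h2ac. A Hist3h2a probe came next in brightness (mean log2 Cy5 of 15.4, against 15.6 for Hist1h2ai) and also stood above the pool. Hist1h2af had one probe at 1.30 ± 0.83 (SD, n = 6) in wild type, 1.56 ± 0.94 in p27 knockout, 1.70 ± 0.63 in stathmin knockout and 2.12 ± 0.70 in double knockout. Hist2h2ac stood at 1.45 ± 0.80, 1.54 ± 0.89, 1.80 ± 0.63 and 2.14 ± 0.76 in the same order. Hist1h2aa, annotated as a testis-type gene, stood at 1.10 ± 0.70, 1.46 ± 0.83, 1.54 ± 0.61 and 1.90 ± 0.66. In these 6 probes the double knockout mean was the highest of the 4, with arrays that overlapped every other genotype. Hist1h2ab averaged 1.01 to 1.26, Hist2h2aa1 0.90 to 1.78, Hist1h2ae -0.19 to 0.06, Hist1h2ac -1.06 to 0.17 and the Hist2h2aa2 probes -0.27 to 0.19 and -0.99 to -0.67. The single high array of Hist1h2ac, at 4.33, was p27 knockout replicate 6.

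Hist3h2a was measured by 3 probes that disagreed. The 2 probes that match its RefSeq transcript averaged 1.29 to 1.76 and -0.14 to 0.42. The third, named after the clone AK015962 and not matched to a RefSeq transcript, ran from -2.03 to 0.10 in wild type, -1.21 to 2.71 in p27 knockout, -2.14 to -0.74 in stathmin knockout and -1.97 to -1.30 in double knockout. Its 2 highest arrays were p27 knockout replicates 5 and 6, at 2.65 and 2.71. Over 24 arrays it correlated with the other 2 at -0.30 and -0.53.

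H2B, the partner of H2A, gave the highest ratios of all histone probes in 2 genes. Hist3h2ba stood at 3.73 ± 0.69 (SD, n = 6) in wild type, 3.51 ± 2.16 in p27 knockout, 3.50 ± 0.37 in stathmin knockout and 3.43 ± 0.18 in double knockout. Hist2h2be stood at 3.35 ± 0.40, 2.94 ± 1.86 and 3.28 ± 0.45 in the first 3 genotypes and at 3.09 ± 0.06 in double knockout, where 1 outlier spot left 5 arrays. The spread in p27 knockout came with replicate 6, at -0.81 for Hist3h2ba and -0.80 for Hist2h2be. The 5 bright H2B probes, of Hist1h2ba, Hist1h2bk, Hist1h2bm and Hist3h2bb, sat near the pool: their genotype means ran from -0.34 to 0.51. Hist3h2bb was matched to RefSeq by name only, under the pseudogene symbol H2bu1-ps. Hist1h2bc lay below it on both its probes, at -1.33 to -0.64 and at -2.70 to -2.38. The Hist1h2be probe was above background on 16 of 24 arrays, with arrays from -1.11 to -0.24 in wild type, -1.53 to -1.11 in p27 knockout, -1.20 to 0.10 in stathmin knockout and -0.70 to -0.09 in double knockout.

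The per-array median of the 3 H3 probes was 1.54 ± 0.18 (SD, n = 6) in wild type. Hist1h3d ran from 0.80 to 1.82 in wild type and from 0.06 to 1.29 in p27 knockout. Hist2h3c1 ran from 1.34 to 2.24 and from 0.75 to 1.59, and Hist1h3a from -0.09 to 1.67 and from -1.39 to 2.27. In all 3 the p27 knockout mean was the lowest of the 4 genotypes, and arrays overlapped. On 2 of these probes, replicates 5 and 6 were the lowest p27 knockout arrays, and without them the p27 knockout median of the type was 1.30 ± 0.07 (SD, n = 4).

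Of the 7 H4 probes tested, 6 moved almost as one. Hist1h4d ran from 1.14 to 2.27 (median 1.70) in wild type, from -0.72 to 2.56 (median 2.16) in p27 knockout, from 0.90 to 2.09 (median 1.74) in stathmin knockout and from 1.36 to 2.63 (median 1.60) in double knockout. Hist1h4f averaged 1.70 to 1.80, Hist1h4a 1.88 to 2.24, Hist2h4 1.46 to 1.59 and Hist4h4 1.26 to 1.69 over the genotypes. Hist1h4i was lower, at 0.32 to 0.92. Hist4h4 lies on chromosome 6, as Cdkn1b does, 16 protein-coding genes away in RefSeq order (GRCm38.p6). It stood at 1.69 ± 1.50 (SD, n = 6) in p27 knockout against 1.26 ± 0.62 in wild type, a difference that did not pass (limma adjusted p = 0.558). Replicate 6 of p27 knockout held -1.32 and the rest 1.89 to 2.54. With array weights the difference was 1.04 (limma adjusted p = 0.0346), in a fit where 4426 of 35185 probes passed.

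H4 probes moved together across mice, as did sets of probes within H2A and H2B. Over the 22 arrays without p27 knockout replicates 5 and 6, the median correlation between H4 probes was 0.93, against 0.08 within H1, 0.21 within H2A, 0.15 within H2B and 0.22 within H3. Between types the median was 0.57 for H1 with H4, 0.52 for H2B with H4 and 0.42 for H2A with H4. The 6 bright H2A probes correlated at 0.96 to 1.00 with each other and at 0.95 to 0.98 with the Hist3h2a probe next in brightness, and the 5 bright H2B probes correlated at 0.87 to 0.98. The 6 H4 probes other than Hist1h4i correlated at 0.91 to 0.98, and Hist1h4i with them at 0.57 to 0.76. Between sets the values were lower: the median was 0.46 for bright H2A with H4 and 0.65 for bright H2A with bright H2B. These are descriptions over arrays that share slides, and the sets were chosen after the values were seen. Probes of the same gene correlated at 0.97 for Hist1h2af, 0.92 for Hist1h2bk and 0.96 for Hist1h4d over all 24 arrays, and at 0.15 for Hist1h2bc.

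**Figure D3:**
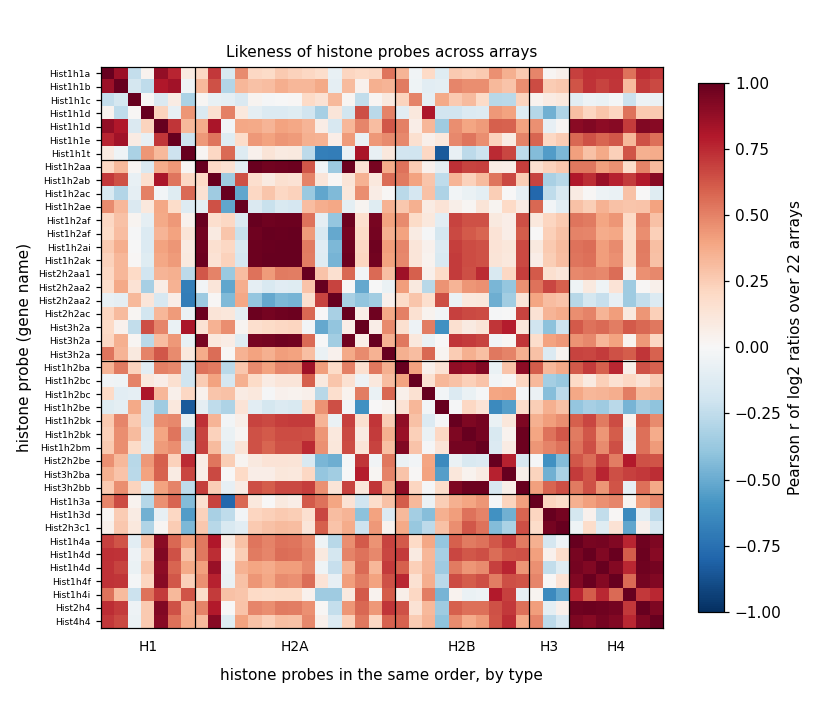
Pearson correlation of log2 ratios between the 42 histone probes over 22 arrays (without p27 knockout replicates 5 and 6), ordered by type; colour gives the correlation. High correlations join the H4 probes other than Hist1h4i (0.91 to 0.98), the bright H2A probes (0.96 to 1.00) and the bright H2B probes (0.87 to 0.98).

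The 34 genes lie in a few places in the genome. RefSeq placed 24 on chromosome 13, 6 on chromosome 3, 3 on chromosome 11 and 1 on chromosome 6. Promoters of 29 of them, 30 windows of 300 bases around the start of transcription (250 before, 50 after), were found in the RefSeq table (GRCm38.p6). CCAAT, searched on both strands, stood in 27 of 30 windows (90.0%), against 37.4% of 32851 promoters of all genes. TATAAA, on the gene's strand, stood in 17 (56.7% against 8.32%). The octamer ATTTGCAT, on both strands, stood in 10 (33.3% against 1.74%), all of them H2A (6 of 11) or H2B (4 of 6). The H1 box AAACACA, on both strands, stood in 9 (30.0% against 7.18%), among them 5 of 6 H1 promoters. Of 5 H4 windows, 2 held CCAAT and 4 TATAAA. Matches were counted anywhere in the 300 bases, not at a set distance from the start. The TATAAA of Hist1h4f opens its window, and that of Hist1h4a lies after the start. Such matches are descriptions of the letters and no evidence of a bound factor.

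Upstream sequences are shown for genes at the ends of these patterns: Hist1h4d and Hist1h4f, whose H4 probes moved together, Hist1h2ai of the bright H2A set, Hist1h2aa, Hist3h2ba with the highest ratio, Hist1h1c below the pool and Hist1h1t. Each is the 250 bases before the start, 5′ to 3′ on the gene's strand, from RefSeq (GRCm38.p6), with matches to the 4 motifs above in capitals, read on either strand where both were searched.
Hist1h4d (chr13:23581318-23581567, forward strand): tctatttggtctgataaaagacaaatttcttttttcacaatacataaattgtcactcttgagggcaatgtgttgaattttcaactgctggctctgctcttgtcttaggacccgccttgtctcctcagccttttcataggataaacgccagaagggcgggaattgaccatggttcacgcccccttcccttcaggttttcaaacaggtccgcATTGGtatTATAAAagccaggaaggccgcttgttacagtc
Hist1h4f (chr13:23551669-23551918, reverse strand): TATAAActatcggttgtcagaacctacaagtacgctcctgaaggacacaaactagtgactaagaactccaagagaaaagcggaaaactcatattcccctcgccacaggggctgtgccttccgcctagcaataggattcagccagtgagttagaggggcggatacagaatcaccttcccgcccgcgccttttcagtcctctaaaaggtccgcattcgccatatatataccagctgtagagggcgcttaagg
Hist1h2ai (chr13:21716162-21716411, forward strand): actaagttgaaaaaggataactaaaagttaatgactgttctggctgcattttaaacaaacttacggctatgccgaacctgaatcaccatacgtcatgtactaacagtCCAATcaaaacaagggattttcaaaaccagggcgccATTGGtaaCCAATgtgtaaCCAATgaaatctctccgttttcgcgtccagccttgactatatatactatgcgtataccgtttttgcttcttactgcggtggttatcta
Hist1h2aa (chr13:23934187-23934436, forward strand): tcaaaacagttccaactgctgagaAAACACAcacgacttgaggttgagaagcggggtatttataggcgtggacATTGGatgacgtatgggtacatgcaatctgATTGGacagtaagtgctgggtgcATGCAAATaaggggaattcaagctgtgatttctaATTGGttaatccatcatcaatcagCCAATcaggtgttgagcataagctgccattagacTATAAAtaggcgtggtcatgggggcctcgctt
Hist3h2ba (chr11:58948661-58948910, forward strand): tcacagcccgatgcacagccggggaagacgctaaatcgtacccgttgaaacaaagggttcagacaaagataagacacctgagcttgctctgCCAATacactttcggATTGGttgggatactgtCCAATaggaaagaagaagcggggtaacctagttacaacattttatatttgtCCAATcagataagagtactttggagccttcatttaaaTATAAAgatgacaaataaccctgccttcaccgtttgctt
Hist1h1c (chr13:23738557-23738806, forward strand): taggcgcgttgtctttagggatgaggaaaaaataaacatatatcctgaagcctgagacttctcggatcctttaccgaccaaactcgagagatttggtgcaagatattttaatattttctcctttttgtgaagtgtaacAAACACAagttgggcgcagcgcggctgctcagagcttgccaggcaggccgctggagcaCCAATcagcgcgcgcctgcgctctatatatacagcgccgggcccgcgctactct
Hist1h1t (chr13:23695561-23695810, forward strand): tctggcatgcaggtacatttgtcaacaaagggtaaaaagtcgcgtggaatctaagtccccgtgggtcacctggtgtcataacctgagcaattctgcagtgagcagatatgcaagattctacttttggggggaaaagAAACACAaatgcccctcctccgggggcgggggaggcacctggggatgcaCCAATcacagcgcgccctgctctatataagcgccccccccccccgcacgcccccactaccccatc
The windows of Hist1h2aa and Hist1h2ba, divergent neighbours on chromosome 13, share 220 bases, so the Hist1h2aa sequence above also serves most of the promoter of Hist1h2ba. In the 250 bases shown, Hist1h4d and Hist1h4f differed in CCAAT, present in the first and absent from the second. The Hist1h4f probe averaged 1.70 in wild type, 1.72 without p27, 1.70 without stathmin and 1.80 without both, and one Hist1h4d probe 1.70, 1.74, 1.67 and 1.76.

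Against wild type, no histone probe passed in any single or double knockout at a limma adjusted p of 0.05. In p27 knockout 0 of 42 passed, where 2 of 35185 probes did (0.00568%). Hist3h2a (the AK015962 probe) was 1.51 higher (SE 0.55, adjusted p = 0.0943) and Hist1h1t 1.46 higher (SE 0.71, adjusted p = 0.172). Hist1h2be was at -0.66 (SE 0.19, adjusted p = 0.0790), and Hist1h3d was at -0.62 (SE 0.26, adjusted p = 0.126). None of these differences passed. The median change of the 42 was -0.00 against 0.07 over all probes, with 21 of 42 above 0 and 3 at an unadjusted p under 0.05, against 10316 of all probes. All 3 H3 probes were below 0 (median -0.54). Leaving out replicates 5 and 6, 0 of 42 passed (0.00284% of all probes did), the median was 0.38 and 33 of 42 were above 0. Over all probes the median was then 0.06, with 19749 of 35185 above 0. In that fit the 7 H4 probes were 0.63 to 1.08 higher than wild type, with adjusted p of 0.375 at the lowest.

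In stathmin knockout 0 of 42 passed, where 1 of 35185 probes did (0.00284%). The median change of the histone probes was 0.03 against -0.01 over all probes, 25 of 42 were above 0, and 1 had an unadjusted p under 0.05 (833 of all probes). One Hist1h2bc probe was at 0.61 (SE 0.27), higher on 6 of 6 slides, and the other at -0.07 (SE 0.31). Hist1h1c was at 0.32 (SE 0.21). Hist2h3c1 was at -0.22 (SE 0.22) and one Hist1h1d probe at -0.31 (SE 0.34). Each adjusted p was 1.00 and none passed.

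In double knockout 0 of 42 passed against wild type, where 4 of 35185 probes did (0.0114%). The median change was 0.17 against -0.02 over all probes, with 30 of 42 above 0 and 3 at an unadjusted p under 0.05 (1630 of all probes). One Hist1h2bc probe was at 0.58 (SE 0.27) and the other at -0.24 (SE 0.31), Hist1h2aa at 0.81 (SE 0.39), one Hist1h1d probe at -0.74 (SE 0.34) and Hist1h1t at -1.01 (SE 0.71), each with an adjusted p of 1.00. The 6 bright H2A probes were 0.69 to 0.81 higher, the Hist3h2a probe next in brightness 0.47 higher and the 5 bright H2B probes 0.31 to 0.43 higher, again with adjusted p of 1.00 throughout. The 6 correlated H4 probes lay at 0.05 to 0.18. These p-values rest on a spread estimate shared by all arrays, p27 knockout replicates 5 and 6 among them. Without those arrays, 57 of 35185 probes passed in this comparison (0.162%) and 0 of 42 histone probes did. The lowest limma adjusted p of a histone probe was then 0.275.

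Double knockout against p27 knockout compares mice without and with stathmin where both lack p27. In this comparison 3 of 42 histone probes passed (7.14%), against 10572 of 35185 probes (30.0%), with 1 histone probe higher (13.3% of all probes were called higher) and 2 lower (16.8% called lower). The share among histone probes was thus below the background. The choice of normalisation bears on the split: of all calls, 44.2% were higher in the fit of loess ratios and 54.9% in a fit of the Cy5 channel alone, which called 2 histone probes higher and 2 lower (28.8% of all probes passed there). Histone probes had a median change of 0.29 against -0.08 over all probes, 31 of 42 were above 0, and 9 had an unadjusted p under 0.05 (15267 of all probes). Agilent's own log ratios moved the median of all probes by 0.12 and the Cy5 channel alone by 0.15. Relative to all probes, the histone median was 0.37 in the fit of loess ratios, 0.36 in Agilent's and 0.26 in the Cy5 channel.

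Hist1h2be rose in double knockout. Its double knockout arrays lay at -0.70 to -0.09 and its p27 knockout arrays at -1.53 to -1.11, with no overlap. The difference was 0.83 (SE 0.19, 1.78-fold, limma adjusted p = 0.00554), and it was higher on 6 of 6 slides, by 0.50 to 1.19. It was above background on 5 double knockout and 2 p27 knockout arrays. Without p27 knockout replicates 5 and 6 it was 0.86 higher (SE 0.21, adjusted p = 0.0216).

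Hist3h2a and Hist1h1t fell. The AK015962 probe of Hist3h2a lay at -1.97 to -1.30 in double knockout and at -1.21 to 2.71 in p27 knockout, with no overlap. The change was -2.04 (SE 0.55, 4.10-fold, adjusted p = 0.0114), lower on 6 of 6 slides, at -4.62 to -0.29. Without replicates 5 and 6 it was -0.91 (adjusted p = 0.0723) and did not pass. The other Hist3h2a probes were 0.44 and 0.40 above p27 knockout, and neither passed. Hist1h1t changed by -2.47 (SE 0.71, 5.56-fold, adjusted p = 0.0146), lower on 5 of 6 slides, and its groups overlapped at p27 knockout replicate 6, which held -0.13. Without replicates 5 and 6 the change was -2.26 (SE 0.58, adjusted p = 0.0231).

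All 3 called probes moved with the brightness of the array. Over the 22 arrays without p27 knockout replicates 5 and 6, the correlation with the log2 99th percentile of Cy5 was -0.86 for Hist1h1t, -0.77 for Hist3h2a and 0.76 for Hist1h2be. Over all 24 arrays it was -0.58, -0.87 and 0.73 in the same order. With that brightness as a covariate, 0 of 42 histone probes passed and 1 of all probes did. Hist1h1t then stood at -1.56 (adjusted p = 0.599), Hist3h2a at -0.15 (adjusted p = 0.905) and Hist1h2be at 0.54 (adjusted p = 0.596). All p27 knockout arrays were dimmer than all double knockout arrays, at 19.4 to 171 against 200 to 320 kilo-units, so the part of brightness in these differences cannot be told apart from genotype.

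Of 8 probes of spermatogenic genes, 4 correlated with Hist1h1t at 0.55 to 0.92 over 24 arrays and 4 at -0.36 to -0.07. Prm2, which packs sperm DNA, correlated with it at 0.92 over 24 arrays and 0.86 over 22, and reached 4.43 and 3.05 on p27 knockout replicates 5 and 3, where Hist1h1t reached 5.73 and 3.47. Prm2 followed brightness at -0.87 over 22 arrays. The 3 probes of the other protamine, Prm1, went the other way, at -0.75, -0.41 and -0.51 with Hist1h1t over 22 arrays, and stood at -1.04, 0.71 and 1.02 on p27 knockout replicate 3. Acrv1, an acrosomal protein gene, correlated at -0.07 over 24 arrays. The median of the 8 probes ran from 0.29 to 1.58 in p27 knockout, -0.05 to 0.74 in wild type, 0.00 to 0.43 in stathmin knockout and -0.09 to 0.39 in double knockout. Its part in the Hist1h1t result was not tested.

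**Figure D4:**
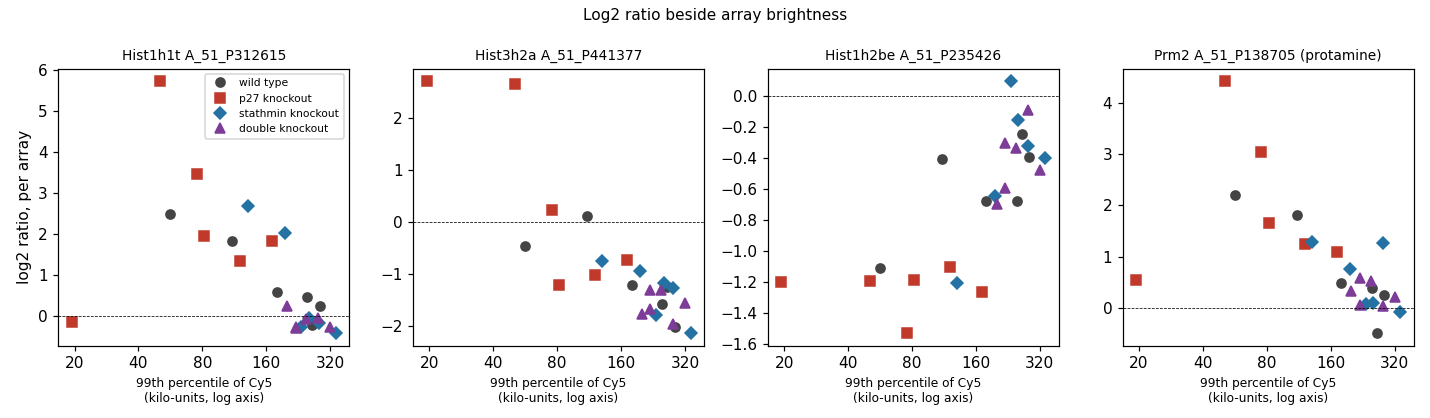
Log2 Cy5 over Cy3 ratio of the 3 called histone probes against the 99th percentile of Cy5 intensity of each array (kilo-units, log axis), by genotype. Hist1h1t and the AK015962 probe of Hist3h2a are high on dim arrays, Hist1h2be low, and p27 knockout occupies the dim end. Hist1h1t departs from this on the dimmest array, p27 knockout replicate 6, at -0.13.

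Leaving out p27 knockout replicates 5 and 6 brought in other members. In that fit 4 of 42 histone probes passed (9.52%), against 15.0% of all probes. Hist3h2ba was then -0.90 (SE 0.30, adjusted p = 0.0457) and Hist1h4i -0.83 (SE 0.26, adjusted p = 0.0379), beside Hist1h1t and Hist1h2be. All 7 H4 probes lay below p27 knockout, at -0.90 to -0.52, whereas on all arrays 3 of 7 lay above. The histone median moved from 0.29 to 0.01, with 21 of 42 above 0. Over all probes the median was -0.06 in that fit, with 15982 of 35185 above 0.

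H3 probes were higher in double knockout on both sets of arrays. The per-array H3 median was higher on 6 of 6 slides, by 0.11 to 1.47. Hist1h3a was at 1.08 (SE 0.42, adjusted p = 0.0570), Hist1h3d at 0.63 (SE 0.26, adjusted p = 0.0655) and Hist2h3c1 at 0.29 (SE 0.22, adjusted p = 0.320), and none passed. With the slide as a block, Hist1h3a, Hist1h3d and Hist2h2aa1 passed too, for 6 of 42 (33.4% of all probes passed), and the 3 probes called above passed at adjusted p of 0.00599 (Hist1h2be), 0.0147 (Hist3h2a) and 0.0165 (Hist1h1t). Without replicates 5 and 6 the 3 H3 probes were 0.16 to 0.41 higher (adjusted p = 0.361 at the lowest).

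**Figure D5:**
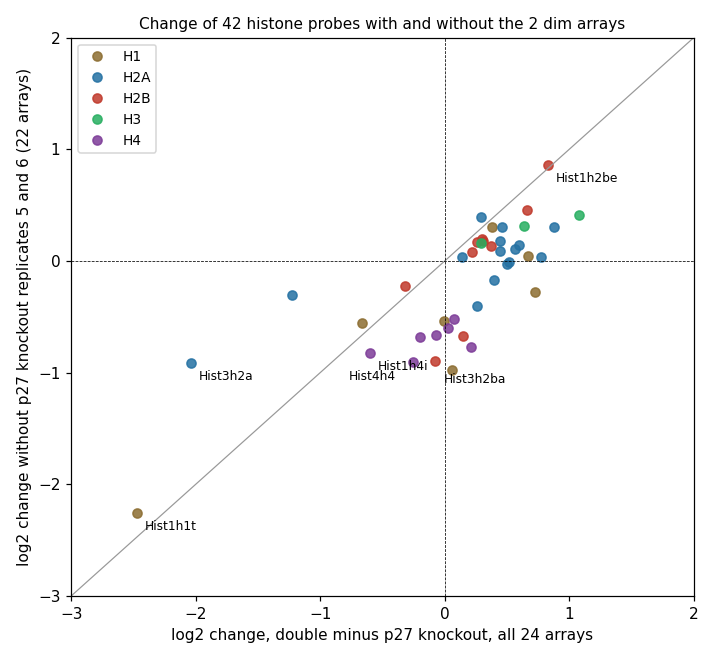
Log2 change of each of the 42 histone probes, double knockout against p27 knockout, with all arrays (x axis) and without p27 knockout replicates 5 and 6 (y axis), by type. H4 probes lie below 0 on the y axis, from -0.90 to -0.52, and the H3 probes above 0 on both axes.

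Against stathmin knockout, 0 of 42 histone probes passed in double knockout, where 2 of 35185 probes did (0.00568%). The median change was 0.09 against -0.01 over all probes, 28 of 42 were above 0 and 0 had an unadjusted p under 0.05 (408 of all probes). Hist1h2bm was at 0.32 (SE 0.21) and Hist1h2bk at 0.31 (SE 0.21). One Hist1h1d probe was at -0.43 (SE 0.34) and Hist1h4i at -0.32 (SE 0.28). Each had an adjusted p of 1.00.

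The interaction asks whether the effect of p27 loss differed with stathmin present or absent. It passed for 0 of 42 histone probes and for 0% of all probes by limma, with 4 histone probes and 6459 of all probes at an unadjusted p under 0.05. Hist1h2be was at 0.68 (SE 0.27, adjusted p = 0.258), Hist1h3d at 0.81 (SE 0.37, adjusted p = 0.259), Hist3h2a at -1.77 (SE 0.78, adjusted p = 0.259) and Hist1h1t at -2.21 (SE 1.00, adjusted p = 0.260). The histone median of 0.19 (-0.08 over all probes) turned to -0.23 (-0.07 over all probes) without p27 knockout replicates 5 and 6.

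Genes that make and handle histone mRNA were called in both directions in double against p27 knockout. In the list of histone mRNA processing and transcription factors, 11 of 41 probes rose and 4 fell (36.6%, against 30.0% of all probes), for 9 and 4 of 22 genes. A probe of Hinfp, the H4 promoter factor, rose by 1.20 (SE 0.28, adjusted p = 0.00554), and Ncbp2 of the cap-binding complex by 1.00 (SE 0.26, adjusted p = 0.00846). Zfp473, the zinc finger protein of the U7 particle, changed by -3.73 (SE 0.87, adjusted p = 0.00566) on one probe. Pou2f1, the octamer factor, was at 1.62 (adjusted p = 0.00591) on one probe and at -0.70 (adjusted p = 0.0491) on another. Cpsf3, the cleavage enzyme, rose by 1.27 (adjusted p = 0.0116) on 1 of 3 probes and Snrpb by 1.54 (adjusted p = 0.0169). Slbp was at 0.23 (adjusted p = 0.699) and Npat at 0.87 (adjusted p = 0.0809) and -0.20 (adjusted p = 0.729), so neither passed. Leaving both dim arrays out, 6 of 41 passed (14.6%, against 15.0% of all probes). Snrpb, at 0.81 (limma adjusted p = 0.0924), the Cpsf3 probes and the lower Pou2f1 probe did not pass there. The other Hinfp probe was at -0.22 (adjusted p = 0.302) in that fit. Zfp473 was at -3.08 (limma adjusted p = 0.0370) on the probe named above and at 0.29 (adjusted p = 0.458) on the other.

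Chaperones that carry histones to DNA gave 9 probes higher and 5 lower of 37 (37.8%, against 30.0% of all probes). Hira, the H3.3 chaperone, rose on 2 probes by 1.84 (SE 0.36, adjusted p = 0.00370) and 1.70 (SE 0.36, adjusted p = 0.00398) and fell on another, at -0.72 (adjusted p = 0.0407). A probe of Nap1l4 rose by 2.48 (SE 0.60, adjusted p = 0.00654). Tonsl was at -1.05 (adjusted p = 0.0120), and Rbbp4 passed in opposite directions on 2 probes, at -1.45 (adjusted p = 0.0194) and 1.75 (adjusted p = 0.0244). Nasp, which carries H3 and H4, was at 0.04 (adjusted p = 0.874). In the fit without replicates 5 and 6, 5 of 37 passed (13.5%, against 15.0% of all probes). Tonsl, at -0.72 (limma adjusted p = 0.0701), the Rbbp4 probes and the lower Hira probe did not pass there. The other Nap1l4 probes were at -0.36 and 0.37 in that fit.

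Replacement histones, whose synthesis is not tied to replication, gave 8 probes higher and 3 lower of 24 (45.8%, against 30.0% of all probes). The oocyte linker H1foo changed by -3.38 (SE 0.67, adjusted p = 0.00370), a probe of H1fx by -2.50 (SE 0.55, adjusted p = 0.00452) and the testis linker H1fnt by -1.35 (SE 0.34, adjusted p = 0.00822). A probe of H2afy, encoding macroH2A1, rose by 1.81 (SE 0.42, adjusted p = 0.00554), H2afy2 by 0.87 (adjusted p = 0.0174) and a probe of H3f3a by 1.46 (adjusted p = 0.0176). H2afz rose by 0.99 (adjusted p = 0.0368) on one probe and was at -0.46 (adjusted p = 0.258) on the other. In the same smaller fit, 5 of 24 passed (20.8%, against 15.0% of all probes), all 5 among the 11. No H3f3a or H2afz probe passed there. The other H1fx probe was at -0.23 (limma adjusted p = 0.612) in that fit, and the other H2afy probes at 0.53 and 0.48.

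S phase genes gave 7 probes higher and 3 lower of 39 (25.6%), below the 30.0% of all probes. A probe of Cdk2 rose by 2.41 (SE 0.54, adjusted p = 0.00470), Cdc45 by 1.96 (SE 0.57, adjusted p = 0.0150) and the sliding clamp Pcna by 1.08 (SE 0.34, adjusted p = 0.0221). Among those lower, a probe of E2f1 was at -0.76 (adjusted p = 0.0121) and a probe of Ccne1 at -0.70 (adjusted p = 0.0133). In the fit without replicates 5 and 6, 2 of 39 passed (5.13%, against 15.0% of all probes), and with brightness as a covariate none in the 4 lists did. Without those arrays, Cdk2 was at 2.04 (limma adjusted p = 0.0304) on one probe and 0.95 (adjusted p = 0.0896) on the other. Cdc45, at 0.77 (adjusted p = 0.0936), and Pcna, at 0.56 (adjusted p = 0.110), did not pass there. Nor did any E2f1 or Ccne1 probe. In the other 5 comparisons 0 probes of these lists passed by limma. Fibroblast markers fell in the same comparison, on 11 of 21 probes (52.4%), and adipocyte markers rose on 10 of 18 (55.6%), where 16.8% of all probes were called lower and 13.3% higher. Their part in these counts was not tested.

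Outside the histones, the probes most like the per-array histone median over 24 arrays were Ethe1, a mitochondrial sulphur dioxygenase (r = 0.83), Gtf2h5, a subunit of the repair and transcription factor TFIIH (0.81), Psmc3ip (0.80), Nkain4 (0.79) and Magoh of the exon junction complex (0.79). Without p27 knockout replicates 5 and 6 these values were 0.63 to 0.71.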

How the data were processed

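Thymus RNA of 24 mice, 6 per genotype, was hybridised on 24 arrays against one fibroblast pool. The deposited scanner files hold spot and local background intensities of both channels and a log10 ratio of Cy5 over Cy3, and per the file headers Agilent Feature Extraction 9.1.3.1 had detrended and dye-normalised that ratio. RNA was extracted with RNeasy columns and amplified as amino-allyl RNA, per the labels' protocols.

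Intensities were background-corrected (normexp, offset 50) and loess-normalised within each array with limma 3.58.1 (R 4.3.3; figures with matplotlib 3.10.9 under Python 3.11.15). Control spots had weight 0, outlier spots (134 per array on average, 353 at most) were left out, saturated spots were kept, and spots of one probe were averaged, from 45018 spots to 41174 gene probes. Probes above background on at least 6 arrays were tested (35185), with 61.9 to 90.9% of spots above background per array. The number of arrays limits the precision. Genotypes were compared in one model with empirical Bayes and Benjamini-Hochberg adjustment over all 35185 probes, and a probe passed at an adjusted p of 0.05. No 2 arrays held identical values. The fit was tested on simulated data in which each probe had the same spread in all genotypes. Changes were added there to probes of below-median spread, without slide effects or dim arrays. That test therefore does not cover the unequal spread, slides and dim arrays of these data.

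The authors' deposited table holds log2 values whose making is not described in the sources used here. Its columns followed the mean log2 brightness of both channels (r of at least 0.980), not the ratio (r from -0.03 to 0.07), so its centring is unknown and it carries no direction against the pool. Its column medians were 9.29, 9.36, 9.33, 8.66, 9.75 and 9.24 in wild type, 8.75, 8.75, 8.90, 9.12, 8.76 and 8.62 in p27 knockout, 10.6, 9.46, 8.88, 9.10, 9.18 and 9.20 in stathmin knockout, and 9.40, 9.32, 9.46, 9.17, 9.15 and 9.30 in double knockout. Its values were used in an alternative fit.

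Gene names are those of the array design; accessions of 22951 probes matched RefSeq. Named were, per type, the 3 probes of highest mean Cy5, the genes with most probes, every histone probe that passed, the 2 lowest p-values per direction and comparison, the Hist3h, Hist4h and testis-type genes, up to 6 members of each other list, and the 5 probes most like the histone median. The histone genes, lists and named-gene rule were chosen with earlier results of these data known. Alternatives were Agilent's log ratios, the Cy5 channel alone, other background and between-array settings, other filters, slide, replicate number and brightness in the model, array weights, and leaving out arrays.

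Replicate numbers did not pair the arrays. Over 36 same-number pairs the correlation of deviations had a median of 0.04 and a minimum of -0.53. The counts for the S phase list cover all its probes, and the values of 1 of its genes are not reported here.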

Additional observations from a re-analysis of the deposited data

Results flagged for a closer look

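In 16 of 128 groups of 6 arrays examined, the lowest array stood far from the other 5, and 15 of the 16 were p27 knockout groups. Chance alone marks about 1 in 20 independent groups, but these probes share arrays and move together, so the count cannot be set against that rate. Except for Hist1h2be, where the array was replicate 3, and Hist2h3c1, where it was replicate 5, the lone p27 knockout array was replicate 6, the dimmest array. The per-array median of all histone probes was -0.70 there, against 0.77 on the next array. The median of H1 probes was -1.70 (next 0.80) and that of H4 probes -0.72 (next 1.79).

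Among H4 probes, Hist1h4f lay at -0.67 (next 1.72), Hist1h4d at -0.72 (next 1.69), Hist2h4 at -0.996 (next 1.79), Hist1h4i at -0.31 (next 0.93) and Hist4h4 at -1.32 (next 1.89). Among linker histones, Hist1h1c lay at -2.13 (next -1.65) and a Hist1h1d probe at -2.29 (next 0.80). In H2A and H2B, a Hist3h2a probe that matches its RefSeq transcript lay at -2.54 (next -0.03), Hist3h2ba at -0.81 (next 3.57), Hist1h2bc at -2.80 (next -1.25) and Hist1h2be at -1.53 (next -1.26). In H3, Hist2h3c1 lay at 0.75 (next 1.37).

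The 1 case outside p27 knockout was Hist1h3a on wild-type replicate 4, at -0.0902 (next 1.37). The effect of p27 loss ran in opposite directions with and without stathmin on every slide for 0 histone probes, and the interaction of p27 and stathmin loss passed for none by limma.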

How the results depend on the processing

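Counts of histone probes passing in p27 knockout against wild type were 0 of 42 in the reported fit, 3 in the authors' deposited table (26.3% of all probes passed) and 4 with array weights (12.6% of all probes). Leaving out 1 array gave 0 to 2 passing: dropping wild type replicate 6 or p27 knockout replicate 1 gave 2 (11.7% and 11.2% of all probes), and dropping p27 knockout replicate 2 or 4 gave 1 (6.76% and 10.9%). In double against p27 knockout 3 passed; Agilent's log ratios gave 6 (36.9% of all probes), the slide as a block 6 (33.4%), array weights 8 (34.5%) and Cy5 brightness as a covariate 0 (0.00284%), while 31 passed (30 higher) in the authors' deposited table (52.0%). Leaving out 1 array gave 3 to 6 passing: 5 without p27 knockout replicate 1, 2 or 4 (32.4 to 34.4% of all probes), and 6 without replicate 6 (28.2%). Authors' table values follow brightness. The causes were not tested.

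The median change of histone probes in double against p27 knockout was -0.06 with array weights and -0.15 with the brightness covariate, against 0.29. Over all probes it was -0.06, -0.02 and -0.08 in these fits. Leaving out each array gave histone medians of 0.15 to 0.39 in double against p27 knockout. Against wild type they were -0.11 to 0.25 for p27 knockout and 0.03 to 0.27 for double knockout. Hist1h1t lost its call with the brightness covariate, Hist1h2be with that and in the authors' deposited table, and Hist3h2a with both and without p27 knockout replicates 5 and 6. All 3 passed in the 12 fits that left out 1 p27 or double knockout array. Aquantile scaling leaves log ratios as they are and the filters leave the changes as they are, so these could hardly alter the calls.

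With replicate number as a block, 3 histone probes passed in double against p27 knockout and 0 in the other comparisons: Hist1h1t (adjusted p = 0.0198), Hist3h2a (0.00591) and Hist1h2be (0.00562). That block changed no histone call. For 6 of 24 arrays, the mean correlation with the arrays of their own number was above that with any other number. Over the slide, the median correlation of pairs was 0.15, and 9 arrays had their highest mean correlation with their own slide. These checks share pairs, since number and slide are the same in every genotype but p27 knockout. Signal over background limits Hist1h2be, measured above background on 2 of 6 p27 knockout arrays. Probes of near-identical genes cannot be told apart, since their sequences were not used here.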
